A study of Mus musculus with 5 samples.

Results

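The nuclear genes for subunits of the mitochondrial respiratory chain and ATP synthase were followed across 5 mouse heart libraries. They were found by symbol in the deposited expression table: symbols that begin with Ndufa, Ndufb, Ndufc, Ndufs, Ndufv, Uqcr or Atp5, symbols made of Cox, a digit from 4 to 8 and a letter, and Sdha, Sdhb, Sdhc, Sdhd and Cycs, without pseudogene symbols ending in -ps and without the Ndufaf assembly factors. This gave 89 of the 17818 symbols in the table. By complex, 39 belonged to complex I, 4 to complex II, 8 to complex III, 1 was cytochrome c (Cycs), 19 belonged to complex IV (with Ndufa4 and its paralog Ndufa4l2, which carry a complex I name) and 18 to ATP synthase, also called complex V. The low-value filter, at least 1 CPM (counts scaled to the library total) in at least 2 libraries, was passed by 88 members. The exception was Cox7b2, a testis-type cytochrome c oxidase subunit, with at most 0.137 CPM in any library, below the level of 3 counts (0.193 to 0.206 CPM). Ndufs6b and Ndufb4c are annotated as processed pseudogenes in GENCODE M21 and share sequence with their parent genes, so their counts are uncertain.

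Every library was made from the heart of male bone marrow recipients, 12 months after the transplantation and after 2 months of treatment. WT vector is 1 library labelled as wild-type control and given vector. Tet2 vector is 2 libraries with the Tet2+/- genotype given vector, and Tet2 oridonin is 2 libraries with that genotype given oridonin, a plant diterpenoid. The labels do not say whether the genotype is that of the marrow donor, of the recipient or of both, whether animals were pooled, or whether same-group libraries came from separate animals, so the p-values rest on a spread between libraries that may be technical. The number used here as the replicate comes from sample titles that end in 1 or 2 with the word month, while the time label is 2 months for every library, so a difference between replicates and one between time points cannot be told apart. No library was labelled as wild-type and given oridonin. The WT column holds whole counts for only 33.5% of genes and looks mixed with a profile outside the table, which could not be undone, so WT levels, their counting intervals and both comparisons with WT rest on it as it stands.

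Electrons from NADH enter the chain at complex I and those from succinate at complex II, and they pass through ubiquinone, complex III and cytochrome c to oxygen at complex IV. The protons that complexes I, III and IV pump drive ATP synthase. Complexes I, III, IV and V join nuclear subunits with a few made from mitochondrial DNA, whereas complex II and cytochrome c are wholly nuclear, and heart muscle is among the tissues richest in all of them. Several complex IV subunits exist as a ubiquitous form and a form made mainly in heart and skeletal muscle.

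Library totals were 15002794 counts in WT vector, 15535778 and 15334618 in Tet2 vector and 14626806 and 14574823 in Tet2 oridonin. Tet2 was at 15.6 CPM in WT vector, 19.2 and 7.76 CPM in Tet2 vector and 9.43 and 17.9 CPM in Tet2 oridonin, so its level in the heart did not separate the genotypes. The 9 cardiomyocyte markers summed to 49822 to 61756 CPM, which fits the heart label. Among markers of other cells, the 7 fibroblast genes summed to 912 CPM in WT vector, 1388 and 1471 in Tet2 vector and 764 and 802 in Tet2 oridonin. The 5 atrial genes summed to 981 CPM in Tet2 vector replicate 1 and to 14.1 to 70.0 CPM in the other libraries. In bulk tissue, fewer cells of a type and less RNA per cell cannot be told apart.

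The promoters of many respiratory genes are known to hold binding sequences of nuclear respiratory factor 1. Whether such a sequence has a part in the levels of these genes was not tested here. RefSeq promoters (250 bases before to 50 after the start, build GRCm38.p6) were matched for 70 members. The letters GCATGCGC, a core of the NRF1 sequence, were searched on both strands, where a match on one strand can overlap a match on the other. They were present in 11 of 70 member promoters (15.7%) and in 2.81% of all 27025 promoters. Windows are shown for the 7 members where the whole window of 36 bases around the first match lay within the 250 bases before the start. Matched bases are in capitals, written 5′ to 3′ on the gene's strand.
Cycs: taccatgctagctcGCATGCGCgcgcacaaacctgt
Cox6a1: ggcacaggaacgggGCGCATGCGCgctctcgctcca
Ndufa11: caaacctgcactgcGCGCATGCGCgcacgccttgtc
Ndufa6: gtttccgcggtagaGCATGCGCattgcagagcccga
Sdhb: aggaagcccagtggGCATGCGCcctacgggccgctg
Atp5mc2: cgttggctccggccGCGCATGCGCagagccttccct
Atp5me: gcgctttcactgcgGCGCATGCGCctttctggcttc
The longer capital runs are matches on both strands that overlap. The windows lie at chr6:50566608-50566643 on the minus strand (Cycs), chr5:115349099-115349134 on the minus strand (Cox6a1), chr17:56717688-56717723 on the plus strand (Ndufa11), chr15:82354353-82354388 on the minus strand (Ndufa6), chr4:140961203-140961238 on the plus strand (Sdhb), chr15:102671068-102671103 on the minus strand (Atp5mc2) and chr5:108434428-108434463 on the minus strand (Atp5me). The capitals began 42 to 83 bases before the start in 6 of them and 162 bases before it in Cox6a1.

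Other factors of respiratory genes gave smaller contrasts with the background. CCGGAAG, a core of the ETS sequence bound by GABPA, was in 21.4% of member promoters against 9.12% of all, AAGATGG of YY1 in 14.3% against 6.48%, AAGGTCA of estrogen-related receptors in 11.4% against 4.66%, and GGGCGG of SP1 in 41.4% against 35.9%. Member promoters had a median GC content of 57.8%, against 52.7% for all, and the shares were not matched for it. Members with and without the NRF1 letters had similar median log2 differences: 0.15 (n = 11) and 0.14 (n = 58) for Tet2 vector minus WT vector, and -0.01 and -0.03 for Tet2 oridonin minus Tet2 vector. Between replicates, replicate 2 minus replicate 1 had medians of 0.33 with and 0.24 without the letters in Tet2 vector, and of -0.29 and -0.22 in Tet2 oridonin, and these differences were not tested. A match describes letters in a window and is no measure of binding.

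Together the 89 genes gave 4.37% of counts in WT vector, 4.22% and 4.70% in Tet2 vector and 4.76% and 4.15% in Tet2 oridonin (95% Wilson intervals within 0.0109 percentage points, for counting error only). The highest shares were therefore in 1 Tet2 vector and 1 Tet2 oridonin library, and the groups overlapped. ATP synthase made up the largest summed level, 17139 to 19415 CPM, followed by complex I at 9651 to 11610 CPM, complex IV at 6661 to 8147 CPM, complex III at 4078 to 4782 CPM and complex II at 3190 to 3580 CPM. Per kilobase of transcript the highest mean levels were those of Atp5f1b, the catalytic beta subunit of ATP synthase (2791 CPM per kb), Cox4i1, the main form of a nuclear complex IV subunit (2245), Atp5f1a, the alpha subunit (1943), Atp5mc3, 1 of 3 genes for the membrane ring's c subunit (1802), and Cox6a2, the muscle form of another complex IV subunit (1613). In complexes II and III the highest per kilobase were Sdhb (704) and Uqcrq (1045).

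The most regular feature of these genes was the difference between libraries of the same group. In Tet2 vector, 78 of 88 members were higher in replicate 2 than in replicate 1, with a median log2 difference of 0.26, whereas the median of all 12734 genes tested was -0.16. In Tet2 oridonin, 86 of 88 were lower in replicate 2 than in replicate 1, with a median of -0.21, against 0.08 for all genes. Both orders held in 77 of 88 members and in 2964 of 12734 genes.

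**Figure D1:**
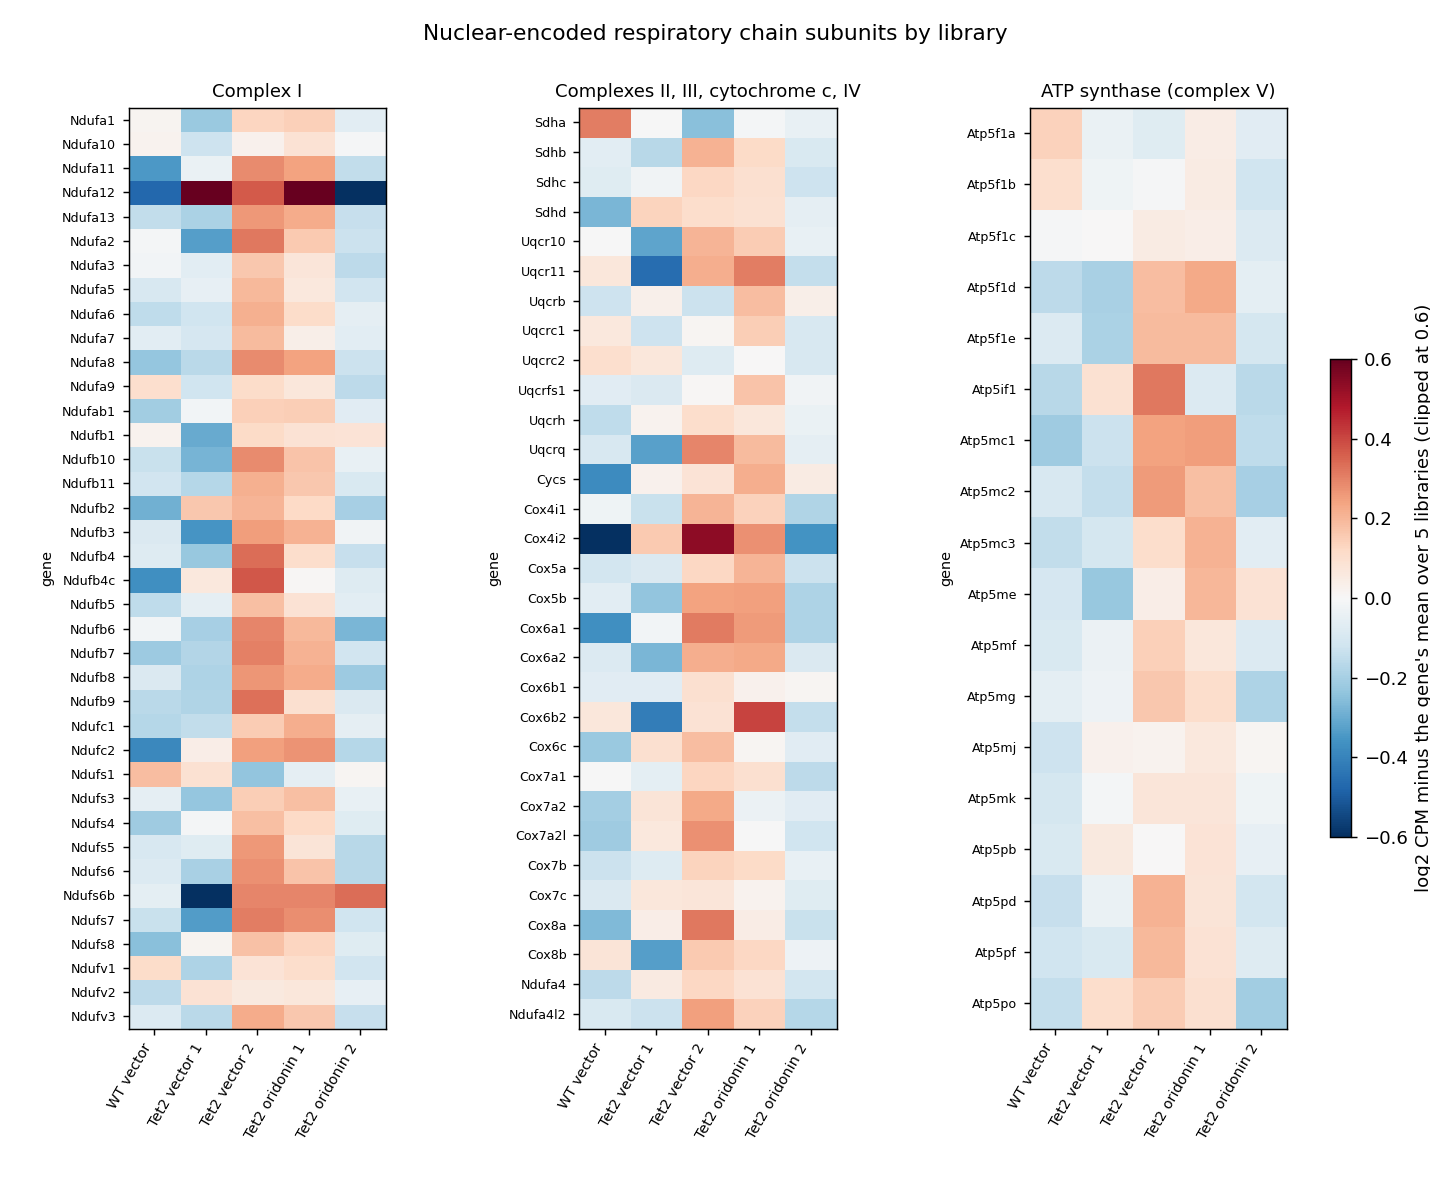
Log2 CPM of the tested subunits, less 1 not shown, minus the gene's own mean over the 5 libraries, in colour (red above, blue below the mean, clipped at 0.6), with genes as rows and libraries as columns. Tet2 vector replicate 2 and Tet2 oridonin replicate 1 are red for most genes of every complex, and the other 3 libraries are mostly pale or blue.

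Tet2 vector replicate 2 was the highest of the 5 libraries for 55 members and Tet2 oridonin replicate 1 for 22, while WT vector was the highest for 7, Tet2 vector replicate 1 for 3 and Tet2 oridonin replicate 2 for 1. The lowest library was WT vector for 34 members, Tet2 vector replicate 1 for 32 and Tet2 oridonin replicate 2 for 18. As a median over members, log2 CPM minus the gene's own 5-library mean was 0.19 in Tet2 vector replicate 2 and 0.12 in Tet2 oridonin replicate 1. It was -0.10 in WT vector and -0.09 in both Tet2 vector replicate 1 and Tet2 oridonin replicate 2. Pairs of members had a median Pearson r of 0.69 over the 5 libraries, and 87.4% of the 3828 pairs were positive, as a description of points that share the same 5 libraries. Skeletal muscle markers, 3 of 7 of which passed the filter (Acta1, Ckm and Myh7, all of them also made in heart), summed to 1932 CPM in Tet2 vector replicate 2 and 1581 in Tet2 oridonin replicate 1, against 1319 to 1540 CPM in the other libraries. The defining skeletal myosins Myh1 and Myh2 had at most 1 count in any library. Cidea, the 1 brown fat marker of 3 that passed, was at 33.8 and 27.1 CPM in those 2 libraries and at 20.7 to 23.3 CPM in the others, and the part of such markers in the subunits' pattern was not tested. In the plot of medians by library, the 5 complexes have their 2 highest values in the same 2 libraries, where the median over all genes is lowest.

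**Figure D2:**
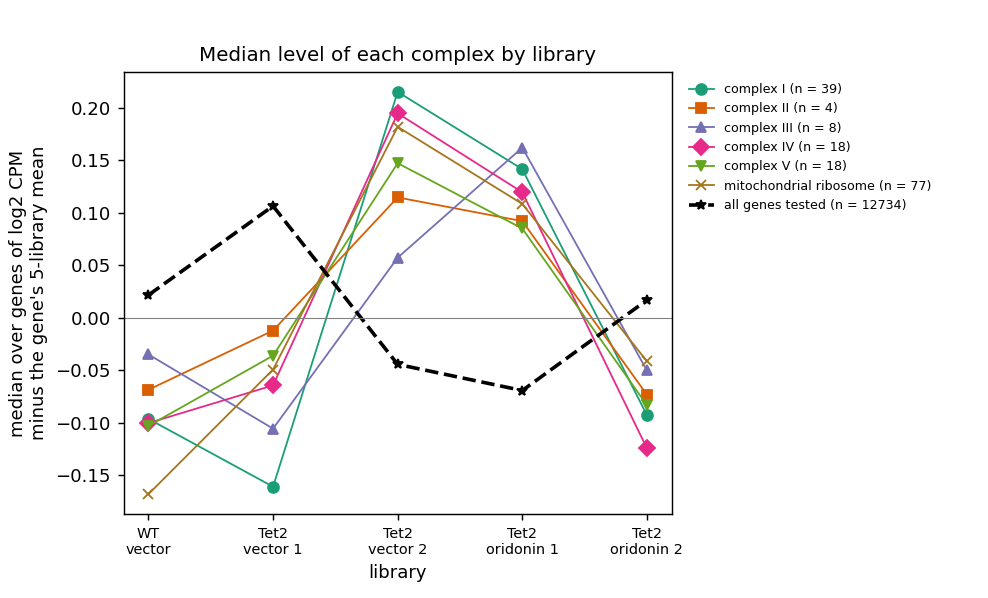
For each set of genes (n in the legend), the median over genes of log2 CPM minus the gene's 5-library mean, by library; lines join the medians of one set. Each of the 5 complexes and the mitochondrial ribosome have their highest medians in Tet2 vector replicate 2 and Tet2 oridonin replicate 1, whereas the median of all genes tested has its lowest values there (-0.04 and -0.07).

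Coding length moved with these differences over all genes, and less so among the members. For replicate 2 minus replicate 1 in Tet2 vector, Spearman rho with length was -0.24 over 81 members and -0.45 over all genes. In Tet2 oridonin it was 0.05 and 0.32. In Tet2 vector, replicate 2 minus replicate 1 had a median of 0.31 in the 62 members with a coding length under 600 bases and 0.02 in the 9 members of 1200 bases or more. Over all genes tested, the corresponding medians were 0.18 for the 1469 short and -0.32 for the 7094 long genes. In Tet2 oridonin, replicate 2 minus replicate 1 was -0.24 in short and -0.13 in long members, and -0.08 and 0.16 in all short and long genes. Short genes as a class were thus higher in the same libraries as the subunits, most of which are short, and the part of coding length or RNA quality in the subunits' pattern was not tested.

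Of 5 named regulators of respiratory genes, 3 had their lowest levels where most subunits were highest, as did the median of all genes (-0.04 and -0.07). Ppargc1a, the coactivator PGC-1α, was at 97.3 CPM in WT vector, 102 and 67.6 in Tet2 vector and 55.5 and 91.9 in Tet2 oridonin. Gabpa, the DNA-binding part of an ETS factor of respiratory promoters, was at 46.7 CPM, then 59.7 and 34.0, then 35.8 and 52.8. Both were lowest in Tet2 vector replicate 2 and Tet2 oridonin replicate 1. Nrf1, which encodes the factor named above, had 12.9 CPM in WT vector, 11.7 and 10.04 in Tet2 vector and 9.78 and 13.4 in Tet2 oridonin. Its 2 lowest values were in the same libraries. Tfam, which packages and transcribes mitochondrial DNA, differed little among Tet2 libraries (47.4 to 49.4 CPM in vector and 46.1 to 46.6 in oridonin, against 37.6 in WT vector), and Esrra, an estrogen-related receptor, ranged from 149 to 182 CPM.

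The first comparison, Tet2 vector against WT vector, asks how the heart differs with the Tet2 genotype. Most subunits were slightly higher in Tet2 vector, with a median log2 difference of 0.13 over the 88 members against 0.005 over all genes, and 71 were above and 17 below the WT level. No single member passed the test: limma called 0 members and 0.0% of all genes at an FDR of 0.05, as did voom weights. At an unadjusted p under 0.05 limma gave 1 member, Cox4i2, where 9.59% of all genes were at that level. Both Tet2 vector libraries lay above the WT library for 42 members, against 35.4% of all genes, and below it for 8, against 32.3%. Without Tet2 vector replicate 1 the median was 0.30. Without replicate 2, the library in which most subunits were high, it was -0.01 with 43 members higher, so the direction rested on that library.

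**Figure D3:**
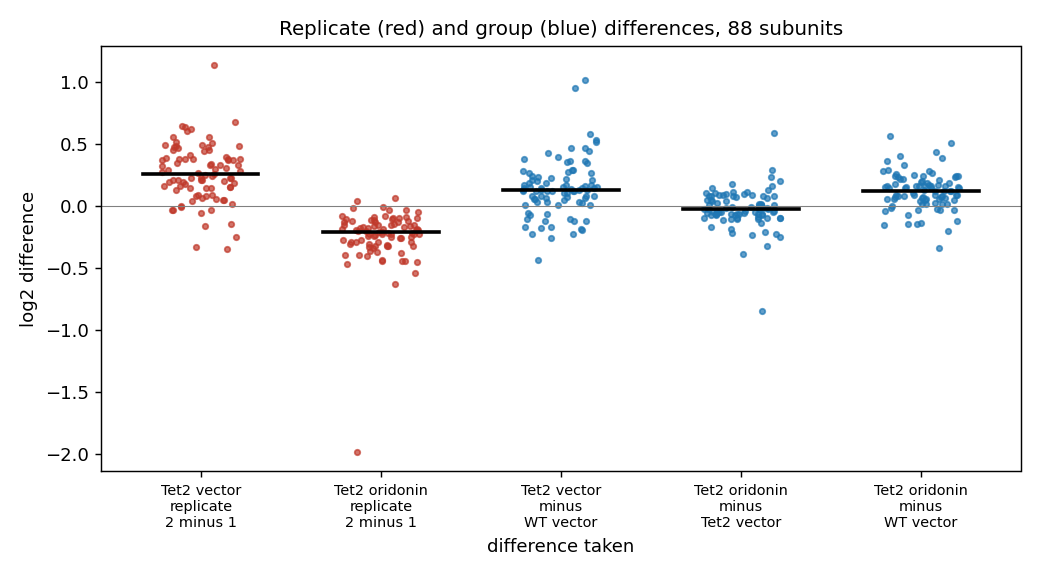
Log2 differences of the 88 tested subunits (points; black bars are medians), between replicates of a group in red and between groups in blue. The medians between replicates (0.26 and -0.21) are farther from 0 than those between groups (0.13, -0.02 and 0.12).

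In complex I, 31 of 39 members were higher and 8 lower in Tet2 vector, with a median log2 difference of 0.13. Ndufc2, an accessory membrane subunit, was at 124 CPM in WT vector, 167 and 193 in Tet2 vector and 196 and 145 in Tet2 oridonin. All 4 Tet2 libraries were above the WT library, and the 2 Tet2 groups overlapped (log2 difference to WT 0.53, SE 0.25, adjusted p = 0.555 in limma). Ndufa11, an accessory subunit of the membrane arm, had 162 CPM in WT vector, 200 and 250 in Tet2 vector and 243 and 185 in Tet2 oridonin, again with WT lowest (0.47, SE 0.26, adjusted p = 0.607 in limma). Ndufb2, another accessory subunit, was at 21.7 CPM in WT vector, 29.5 and 30.4 in Tet2 vector and 28.8 and 23.1 in Tet2 oridonin, so both oridonin libraries lay between WT and Tet2 vector.

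The 7 catalytic core subunits of complex I, which hold the flavin, the iron-sulfur clusters and the quinone site, were evenly divided, with 4 higher and 3 lower than WT (median 0.01, range -0.26 to 0.35). Ndufs8, an iron-sulfur subunit, was at 178 CPM in WT vector, 214 and 239 in Tet2 vector and 231 and 201 in Tet2 oridonin, with WT lowest. Ndufs1, the longest subunit of the complex, had 685 CPM in WT vector, 643 and 512 in Tet2 vector and 582 and 609 in Tet2 oridonin, with WT highest. Ndufv1, which binds NADH and the flavin, was also lower in Tet2 vector, by a log2 difference of -0.16. Of the 32 accessory members, 27 were higher (median 0.15).

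Complex II was split between its subunits. Sdha, the flavoprotein that oxidises succinate (chr13:74322255-74350240 in GRCm38), was at 1938 CPM in WT vector, 1561 and 1315 in Tet2 vector and 1553 and 1519 in Tet2 oridonin. Every Tet2 library was below WT, and the 2 Tet2 groups overlapped (Tet2 vector minus WT -0.44, SE 0.19, adjusted p = 0.532 in limma). Sdhd, a membrane anchor, went the other way, with 374 CPM in WT vector, 497 and 487 in Tet2 vector and 482 and 437 in Tet2 oridonin (0.40, SE 0.18, adjusted p = 0.542 in limma). Sdhc, the other anchor, and Sdhb, the iron-sulfur subunit, differed by 0.13 and 0.09, and Sdhb had WT inside the range of Tet2 vector (766 against 713 and 925 CPM). Sdha has the longest coding sequence of the 4 and Sdhd the shortest.

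Complex III showed no common direction, with 4 of 8 members higher, 4 lower and a median of -0.01. Cyc1, the cytochrome c1 gene of this complex, is no member by the symbol rule and is not in its sums. It was at 757 CPM in WT vector, 685 and 805 in Tet2 vector and 906 and 738 in Tet2 oridonin. Uqcrh, the hinge protein that helps cytochrome c dock, was at 418 CPM in WT vector, 470 and 499 in Tet2 vector and 485 and 451 in Tet2 oridonin, with WT lowest (0.21, adjusted p = 0.730 in limma). The large core proteins Uqcrc1 (1205 CPM in WT vector, 1059 and 1162 in Tet2 vector) and Uqcrc2 (932, then 913 and 826) were both lower in each Tet2 vector library than in WT, by 0.12 and 0.10 on the log2 scale.

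Cytochrome c, the soluble carrier between complexes III and IV, was among the members with the smallest unadjusted p. Cycs (chr6:50562563-50566569) was at 462 CPM in WT vector, 611 and 635 in Tet2 vector and 699 and 622 in Tet2 oridonin. All 4 Tet2 libraries were above the WT library, and the Tet2 groups overlapped. The log2 difference to WT was 0.43 (SE 0.18, adjusted p = 0.530 in limma) in Tet2 vector and 0.51 (SE 0.18, unadjusted p = 0.0298, adjusted p = 0.791 in limma) in Tet2 oridonin. Its gap between Tet2 vector replicates was 0.06, far below the median gap of the members.

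In complex IV, 16 of 18 tested members were higher in Tet2 vector (median 0.15) and 10 had both libraries above WT, against 35.4% of all genes. Cox4i2 (chr2:152753916-152765039), a form of subunit 4 known to respond to low oxygen and expressed mainly in lung, was at 5.59 CPM in WT vector, 9.53 and 12.4 in Tet2 vector and 10.3 and 6.66 in Tet2 oridonin. WT was the lowest library, and the log2 difference of 0.95 (SE 0.38, unadjusted p = 0.0470, adjusted p = 0.517 in limma) had the smallest p of the members in this comparison. Cox6c, a structural subunit, had 454 CPM in WT vector, 566 and 603 in Tet2 vector and 534 and 505 in Tet2 oridonin, which again placed both oridonin libraries between WT and Tet2 vector.

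ATP synthase had 16 of 18 members higher in Tet2 vector, with a median of 0.15. The 2 lower ones were its longest and most abundant, Atp5f1a, at 5276 CPM in WT vector, 4667 and 4559 in Tet2 vector and 4937 and 4567 in Tet2 oridonin (-0.19), and Atp5f1b (-0.12). Atp5if1, the inhibitor that blocks ATP hydrolysis by the enzyme, was at 53.0 CPM in WT vector, 63.2 and 73.9 in Tet2 vector and 56.1 and 53.1 in Tet2 oridonin. Tet2 vector was above all 3 other libraries (0.37, SE 0.22, adjusted p = 0.629 in limma). Atp5po, the stalk subunit named for oligomycin sensitivity, had 424 CPM in WT vector, 504 and 521 in Tet2 vector and 501 and 407 in Tet2 oridonin.

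Across complexes, long members were mostly lower than WT and short ones mostly higher. Of the 9 members with a coding length of 1200 bases or more, 8 were lower in Tet2 vector (median -0.16), whereas of the 62 under 600 bases 57 were higher (median 0.15). The same direction was present over all genes tested, with medians of -0.11 for 7094 long and 0.22 for 1469 short genes. Spearman rho of this difference with length was -0.16 over 81 members and -0.32 over all genes. The opposite directions of Sdha and Sdhd, of the long and short core subunits Ndufs1 and Ndufs8 and of Atp5f1a and the smaller ATP synthase subunits go along with length, and its part in them was not tested.

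**Figure D4:**
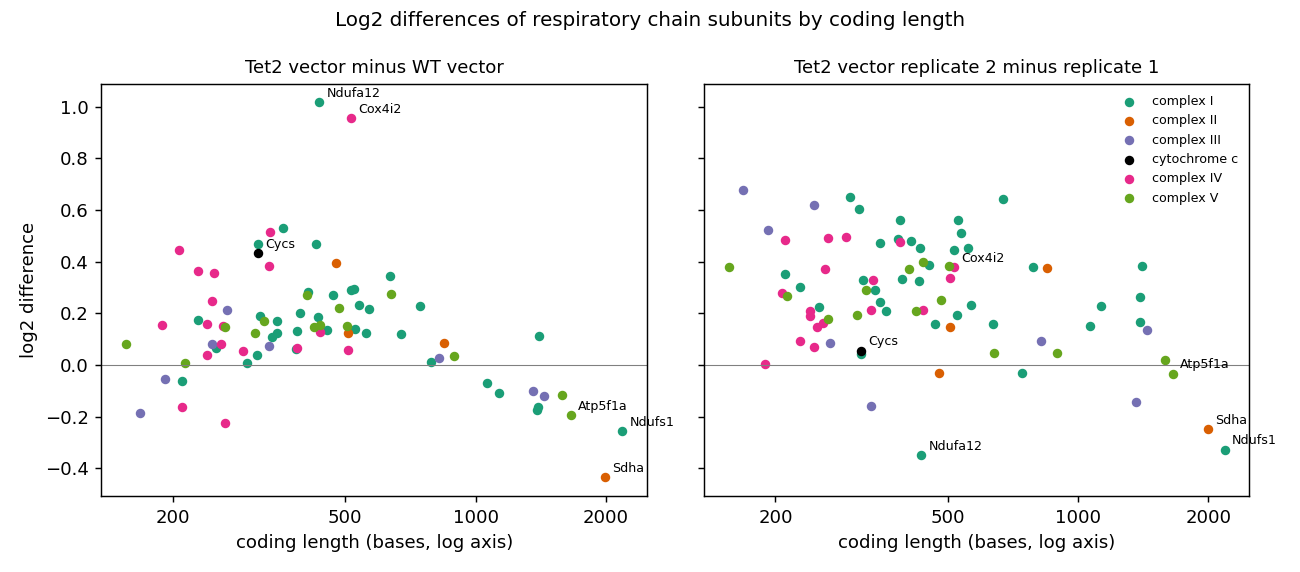
Log2 difference of each subunit with an annotated coding length (n = 81) against that length on a log axis, for Tet2 vector minus WT vector (left) and for Tet2 vector replicate 2 minus replicate 1 (right); colours are complexes. The long subunits Sdha, Ndufs1 and Atp5f1a lie below 0 in both panels, and most subunits under 600 bases lie above 0. Of the 9 subunits of 1200 bases or more, 8 lie below 0 on the left. On the right 4 of them lie below and 5 above 0 (median 0.02).

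The second comparison, Tet2 oridonin against Tet2 vector, asks what the compound changed within the genotype. The subunits differed little, with a median log2 difference of -0.02 over the 88 members (-0.05 over all genes), 36 higher and 52 lower. With median-of-ratios scaling 57 were higher and the median was 0.04, so no common direction held. Limma called 0 members and 0.0% of all genes at an FDR of 0.05, voom called 0, and at an unadjusted p under 0.05 limma gave 0 members and 2.60% of all genes. Both oridonin libraries were above both vector libraries for 3 members, Atp5me, Ndufs6b and Uqcrb, against 8.37% of all genes, and below both for 9, Atp5if1, Atp5po, Cox6c, Cox7a2, Cox7a2l, Cox7c, Ndufb2, Ndufb4c and Sdhd, against 17.8%. Depending on which library was left out, 14 to 71 members were higher.

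Of the 9, 4 are complex IV genes, out of 18 tested members of that complex, against 17.8% of all genes. Cox7a2l, which joins complexes III and IV into supercomplexes, was at 214 CPM in WT vector, 260 and 301 in Tet2 vector and 248 and 229 in Tet2 oridonin. Cox7a2, the ubiquitous form of subunit 7a, had 258 CPM in WT vector, 314 and 348 in Tet2 vector and 290 and 284 in Tet2 oridonin. In both, oridonin libraries lay between the WT and the Tet2 vector libraries, with oridonin minus vector of -0.23 (SE 0.16) and -0.20 (SE 0.15) and adjusted p = 1.000 for each in limma. Atp5if1, given above, had the largest difference of the 9 (-0.32). Among the 3 higher ones, Atp5me, a small membrane subunit of ATP synthase, was at 80.1 CPM in WT vector, 73.3 and 88.2 in Tet2 vector and 98.6 and 91.1 in Tet2 oridonin. Uqcrb, a ubiquinone-binding subunit of complex III, had 178 CPM in WT vector, 197 and 177 in Tet2 vector and 220 and 198 in Tet2 oridonin.

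Ndufa12, an accessory subunit of complex I, had the largest fitted difference between oridonin and vector, and it came from 1 library. Ndufa12 (chr10:94199035-94221440) was at 97.7 CPM in WT vector, 223 and 175 in Tet2 vector and 218 and 55.2 in Tet2 oridonin, so oridonin replicate 1 matched the vector libraries and replicate 2 was the lowest of all. The log2 difference to WT was 1.02 in Tet2 vector, and oridonin minus vector was -0.85 (SE 0.60, adjusted p = 1.000 in limma). Without oridonin replicate 1 it was -1.84 (adjusted p = 0.00887 in limma, where 1 oridonin library is assumed to vary like the Tet2 vector pair, the only source of the spread), and without replicate 2 it was 0.14. Its pseudogene Ndufa12-ps, no member by the rule, was at 99.3 CPM in WT vector, 42.4 and 109 in Tet2 vector and 79.8 and 105 in Tet2 oridonin. Ndufa12 made up 49.6% of their joint counts in WT vector, 84.0% and 61.7% in Tet2 vector and 73.2% and 34.4% in Tet2 oridonin, and their sum ranged from 160 to 298 CPM. The labels do not say how reads were divided between the 2 copies, so the level of Ndufa12 is uncertain.

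The third comparison, Tet2 oridonin against WT vector, shares its WT library with the first and its oridonin libraries with the second and is no independent repeat of either. Median log2 difference over members was 0.12 (-0.06 over all genes), with 74 higher and 14 lower. Limma called 0 members and 0.0% of all genes at an FDR of 0.05, as did voom. At an unadjusted p under 0.05 limma gave 1 member, Cycs, and 6.21% of all genes. Both oridonin libraries were above WT for 49 members, against 31.9% of all genes, and below WT for 8, against 41.7%. By complex, 33 of 39 members of complex I, 3 of 4 of complex II, 6 of 8 of complex III, 16 of 18 of complex IV and 15 of 18 of ATP synthase were higher than WT. Without oridonin replicate 1, in which most subunits were high, 49 members were higher than WT in place of 74 and the median was 0.01.

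Pairs of alternative forms of a subunit can be compared within a library, where library scaling cancels. In 4 complex IV pairs the ratio was lower in Tet2 vector than in WT vector, with the oridonin libraries in between. The direction depends on which form is written first, and the pairs are not written alike. The Cox8, Cox6a and Cox7a ratios set the muscle form over the ubiquitous form. The Cox4 ratio sets the common form on top, so its fall is not the same kind of shift. The ratio of counts of Cox8b, the muscle form of subunit 8, to Cox8a, the ubiquitous form, was 4.76 in WT vector, 2.91 and 3.35 in Tet2 vector and 3.96 and 4.04 in Tet2 oridonin. That of Cox6a2, the muscle form of subunit 6a, to Cox6a1 was 15.0 in WT vector, 10.2 and 11.5 in Tet2 vector and 12.0 and 13.1 in Tet2 oridonin. In both pairs the 3 groups did not overlap. The ratio of Cox7a1, the muscle form of subunit 7a, to Cox7a2 was 1.03 in WT vector, 0.811 and 0.834 in Tet2 vector and 0.979 and 0.839 in Tet2 oridonin, with oridonin replicate 2 almost at the vector level. For Cox4i1 over Cox4i2, the common over the oxygen-responsive form, it was 292 in WT vector, 159 and 154 in Tet2 vector and 177 and 220 in Tet2 oridonin.

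**Figure D5:**
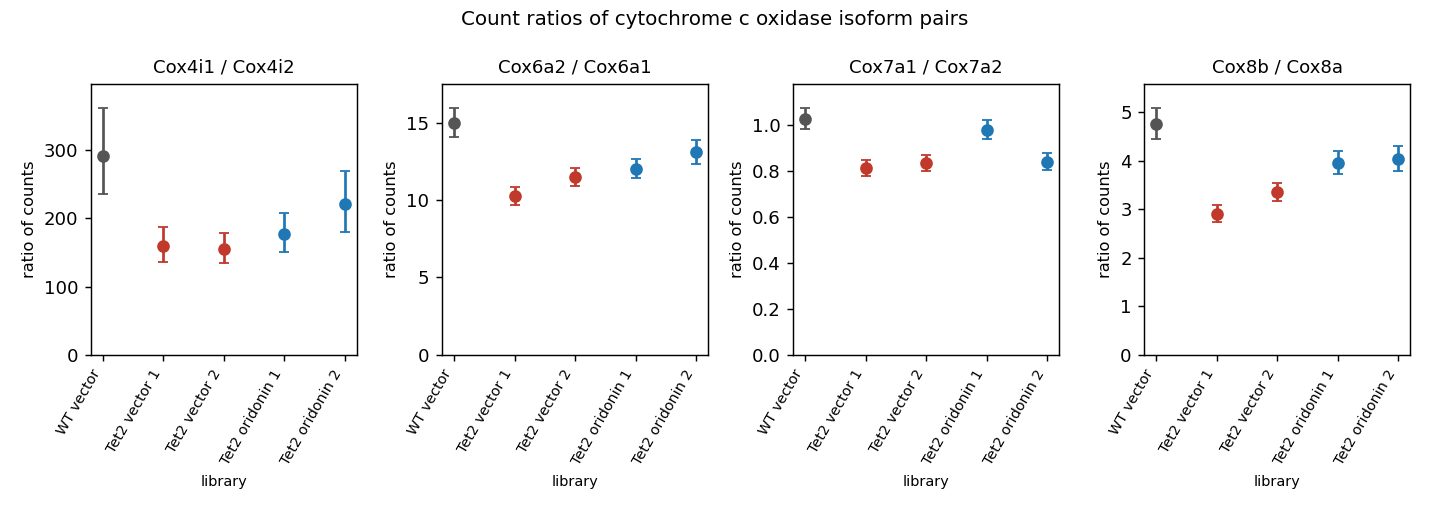
Ratio of counts of the first to the second gene of 4 complex IV isoform pairs in each library, with 95% intervals that cover counting error only; grey is WT vector, red Tet2 vector, blue Tet2 oridonin, and axes start at 0. In each panel the highest ratio is that of WT vector and the 2 lowest are those of Tet2 vector.

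The 95% counting intervals of WT vector and Tet2 vector did not overlap in these 4 pairs. For Cox8b over Cox8a the interval was 4.46 to 5.08 in WT vector and 2.73 to 3.09 and 3.17 to 3.54 in Tet2 vector. These intervals leave out the spread between libraries, and that of WT rests on a column that looks mixed. They therefore cannot decide whether the gap to WT exceeds that spread. The order of the groups was seen first and is given as a description, with no test. In the numbers behind the muscle to ubiquitous ratios, Cox8a, Cox6a1 and Cox7a2 had both Tet2 vector libraries above WT, against 35.4% of all genes. In the Cox4 pair it was the rare Cox4i2 that lay above WT. The common Cox4i1 overlapped WT (1634 CPM in WT vector, 1514 and 1914 in Tet2 vector). Cox8a was at 71.5 CPM in WT vector, 88.2 and 107 in Tet2 vector and 88.6 and 78.2 in Tet2 oridonin, and Cox6a1 was at 68.7 CPM, then 87.6 and 110, then 106 and 78.1. The muscle forms overlapped WT, as in Cox8b (340 CPM in WT vector, 256 and 359 in Tet2 vector) and Cox6a2 (1028, then 898 and 1264).

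Fibroblast markers shared part of this order: their summed level, given above, was highest in Tet2 vector. All 7 were lower in both oridonin than in both vector libraries, against 17.8% of all genes. Unlike the ratios, the oridonin libraries were below WT in the sum, with 5 of 7 markers lower than WT (median -0.15). Macrophage markers summed to 138 CPM in WT vector, 238 and 176 in Tet2 vector and 176 and 160 in Tet2 oridonin. Smooth muscle markers summed to 593 CPM in Tet2 vector replicate 1 and to 149 to 301 CPM in the other libraries. The atrial genes, given above, were also highest in that library. It had the lowest ratios of Cox8b, Cox6a2 and Cox7a1 to their ubiquitous forms. Endothelial markers went the other way, with their lowest sum there (1294 CPM, against 1400 to 1560 CPM). Cells other than cardiomyocytes carry the ubiquitous forms, and the part of these cells or of atrial tissue in the ratios was not tested. The ADP/ATP carriers, chosen after their values were seen, gave the same order: Slc25a4, the heart form, over Slc25a5, a form of many tissues, was 20.5 in WT vector, 13.0 and 15.1 in Tet2 vector and 19.3 and 17.4 in Tet2 oridonin. Other subunit pairs gave no such order. Ndufa4 over Ndufa4l2 was 30.6 in WT vector, 36.4 and 29.5 in Tet2 vector and 30.9 and 33.5 in Tet2 oridonin. The rare Cox6b2, at 0.966 to 1.71 CPM, gave 320 for Cox6b1 over Cox6b2 in WT vector, 447 and 353 in Tet2 vector and 270 and 391 in Tet2 oridonin, from 15 to 25 counts of Cox6b2 per library. Of the 3 c-subunit genes of ATP synthase, Atp5mc1 over Atp5mc2 stayed between 5.19 and 5.91 in all libraries, and Atp5mc3 over Atp5mc2 between 6.88 and 8.40.

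The 13 subunits made from mitochondrial DNA were higher in Tet2 libraries by more than the nuclear ones. In Tet2 vector 12 of 13 were higher than WT, with a median log2 difference of 0.43, and in Tet2 oridonin 13 of 13, with 0.42. None passed an FDR of 0.05 in limma, and 3 and 4 had an unadjusted p under 0.05, against 9.59% and 6.21% of all genes. Counts of the mitochondrial genome per count of the nuclear members were 5.40 in WT vector, 6.36 and 6.32 in Tet2 vector and 6.35 and 6.80 in Tet2 oridonin, so all 4 Tet2 libraries were above WT. When library totals left these counts out, the all-gene median of Tet2 oridonin minus WT vector moved from -0.06 to 0.05, that of Tet2 vector minus WT vector from 0.005 to 0.096, and the members' medians became 0.23 and 0.22. Libraries made by poly-A selection can differ in how much mitochondrial RNA they retain, which was not tested.

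Genes that build or feed the chain are listed with 0 called at an FDR of 0.05 by limma in every comparison. Of 77 mitochondrial ribosomal protein genes, 69 were higher in Tet2 vector than in WT (median 0.24, 7 at an unadjusted p under 0.05, near the 9.59% of all genes), 71 in Tet2 oridonin than in WT, and 27 in Tet2 oridonin than in Tet2 vector. Complex II assembly factors were higher than WT in 4 of 4 and complex III assembly factors in 6 of 6 in both Tet2 groups, with medians of 0.46 and 0.27 in Tet2 vector. Sdhaf4, which helps the Sdha flavoprotein to assemble, was at 20.6 CPM in WT vector, 29.9 and 37.6 in Tet2 vector and 27.6 and 30.7 in Tet2 oridonin. WT vector was lowest and Tet2 vector replicate 2 highest, whereas for Sdha itself WT vector was highest and Tet2 vector replicate 2 lowest. Complex I assembly factors were higher than WT in 11 of 15 in Tet2 vector (median 0.15), and complex IV assembly factors in 12 of 18 (0.11). In Tet2 oridonin against WT, 9 of 18 complex IV assembly factors were higher and 9 lower. Complex V assembly factors were higher than WT in 2 of 5 in both Tet2 groups, with medians of -0.02 in Tet2 vector and -0.08 in Tet2 oridonin.

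In the group comparisons, enzymes that supply the chain were more often lower than higher in Tet2 vector. Of 18 tricarboxylic acid cycle genes, 6 were higher and 12 lower in Tet2 vector than in WT (median -0.06), and of 13 coenzyme Q synthesis genes, 4 were higher and 9 lower (median -0.04). The coenzyme Q list ranged from -0.27 to 1.19. In it 1 gene, a higher one, had an unadjusted p under 0.05 in limma, against 9.59% of all genes. In Tet2 oridonin against Tet2 vector, 12 of 18 and 9 of 13 were higher, with medians of 0.02 and 0.04. Among the Tet2 libraries, coenzyme Q synthesis genes were higher in the same libraries as the subunits. Their median deviations from the gene's own mean were 0.11 in Tet2 vector replicate 2 and 0.09 in Tet2 oridonin replicate 1. The other Tet2 vector and Tet2 oridonin replicates had -0.09 and -0.07. In WT vector, however, coenzyme Q synthesis genes had 0.06, where the subunits had -0.10. Tricarboxylic acid cycle genes had -0.06 in Tet2 vector replicate 2 and 0.02 in Tet2 oridonin replicate 1. Of 16 regulators, 5 were higher and 11 lower in Tet2 vector than in WT, with a median of -0.18, and 1 in each direction had an unadjusted p under 0.05, against 9.59% of all genes.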

How the data were processed

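The data deposited by the authors were log2 values of 5 heart RNA-seq libraries in 1 table, with 0 columns that had no sample. The submitters' processing notes name mm10 as the build. Aligner, counter, annotation and strand setting: not given in the sources used here. In form, the deposited log2 values follow log2 of (count + 0.5) as CPM. Each Tet2 column held 0.75 of its own and 0.25 of the other replicate's log2 value; undoing this returned whole counts (within 0.01) for 99.916% to 99.944% of genes, against 9.06% to 10.4% as deposited. The WT column (33.5% whole) looks mixed too, with a profile that is no column of the table, and was used as deposited, as 1 sample.

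The trend method of limma 3.58.1 (R 4.3.3), with robust empirical Bayes, was fitted to 12734 genes (1 CPM or more in 2 or more libraries), with group as the only term. It has 2 residual degrees of freedom, all from Tet2 libraries, so WT, a single library, takes its spread from those. Resulting p-values were Benjamini-Hochberg adjusted over all genes. Simulated counts were tested first. Fold changes are log2 differences of these values. Coding lengths and levels per kilobase come from GENCODE M21, promoters from RefSeq (GRCm38.p6). The deposited values, voom, scaling, the filter, the pseudocount, replicate blocks and left-out libraries were tried as alternatives.

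Members and lists were chosen with earlier results of these data known. Named in each complex and comparison were the 3 members of smallest unadjusted p, the isoform pairs, the highest and lowest members, the complex I core and complex II, and 5 regulators. Members that did not overlap between oridonin and vector, Cox7b2, the pseudogenes, Cyc1, Sdhaf4, and the carriers were named after their values were seen. 1 member, counted in all totals, is not reported by name here.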

Additional observations from a re-analysis of the deposited data

How the results depend on the processing

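The WT group is 1 library, and values set against it have no replicate check on that side. With the log2 values as deposited, whose replicates are partly mixed into each other, limma called 9 members in Tet2 vector against WT and 1 in oridonin against WT, and 2312, 76 and 996 of all genes in the 3 comparisons, at the same fold changes; the mix by construction narrows the replicate spread. With median-of-ratios scaling 57 members were higher in oridonin against vector. Replicate numbers did not pair the libraries (correlation of replicate 1 deviations between Tet2 groups -0.30 over 12734 genes). With the replicate block, 10, 9 and 6 of all genes were called and no member. A crossed replicate block, chosen after seeing the data, called 432, 44 and 184 of all genes, with 44 members higher in Tet2 vector and 42 in oridonin against WT, and turned Sdhb in oridonin against WT to -0.072. Leaving out 1 library at a time, the members' median in Tet2 vector against WT ranged from -0.010 to 0.30. Members higher then ranged from 43 to 79 there, from 14 to 71 in oridonin against vector and from 49 to 80 in oridonin against WT, and 0 to 1 member (Ndufa12) was called in oridonin against vector. All genes called ranged from 2 to 107, from 3 to 32 and from 1 to 24. In oridonin against vector, log2 differences then ranged from -1.84 to 0.14 for Ndufa12, from -0.14 to 0.54 for Uqcr11, from -0.024 to 0.22 for Sdha, from -0.17 to 0.043 for Sdhc and from -0.0022 to 0.17 for Cycs, and Sdhb in oridonin against WT ranged from -0.030 to 0.18; the cause was not tested. Of the single members' values under all alternatives, 622 kept their direction and side of the threshold, 9 turned direction and 9 came to pass the threshold (8 with the deposited values and Ndufa12).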
